A study of Mus musculus with 4 samples.

Results

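The binding of CTCF, a zinc finger protein that marks the borders of chromatin domains, was described at 6 mouse limb genes: Shh and Lmbr1 on chromosome 5, and Wnt6, Ihh, Epha4 and Pax3 on chromosome 1. A site was taken to belong to these genes when a peak summit lay within 50 kb of the span of 1 of them in the mm10 annotation, and summits of different libraries within 100 bp of each other formed 1 site. By this rule 85 sites were found among the 123687 sites outside chromosome 11. The Del(CBS8-10) library had 44 of them, the Inv:Del(CBS7-10) library 67, the Inv library 39 and the Ins library 60.

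CTCF was profiled by CUT&RUN, in which an antibody directs a nuclease to the bound protein and the released fragments are sequenced, in mouse embryonic stem cells (mESC) with engineered HoxB alleles on chromosome 11. All 4 lines carried the allele Del on one HoxB chromosome and Del(i9-13) with the insertion Ins(CBS5-10) on the other. The Del(CBS8-10) line carried the further allele Del(CBS8-10), the Inv:Del(CBS7-10) line both Inv(CBS5-10) and Del(CBS7-10), and the Inv line Inv(CBS5-10), while the Ins line carried the insertion with no further change. There was 1 library per genotype, and no library of unedited cells was analysed here, so differences between libraries have no replicate check, and the 95% intervals given here cover counting error only. No named allele lies on chromosomes 1 or 5. The sources used here do not say whether a line is a single clone, and peak positions give no check of the mESC label.

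CTCF halts the cohesin complex as it extrudes chromatin loops, and sites that face each other on the DNA tend to anchor the loops that make up a domain. Shh encodes the morphogen made at the posterior margin of the limb bud, and its limb enhancer, the ZRS, lies far away in an intron of Lmbr1, at the opposite end of the same domain. Epha4, an ephrin receptor gene, sits in a large domain with its own limb enhancers, between the Wnt6 and Ihh side, where a Wnt ligand and a hedgehog ligand are encoded, and Pax3, a transcription factor gene of muscle and neural crest precursors. Rearrangements that remove the borders of the Epha4 domain are a classic cause of digit malformations in humans and mice. The cells profiled here are pluripotent and not limb cells, and the annotation used here has no entry for the ZRS, so no distance to it is given.

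Of the windows from 250 bases before to 50 bases after a gene start (RefSeq, GRCm38.p6), 3 near the 6 genes held a CTCF summit, and the pair below is printed because it shows a promoter summit found in every library and one found in Ins alone. The Prkag3 window, chr1:74748906-74749205 on the minus strand, belongs to a muscle subunit gene of AMP-activated kinase next to Wnt6, and its summit is base 190. The Lmbr1 window, chr5:29378341-29378640 on the minus strand, has its summit at base 179. Capitals mark the summit base and the 10 bases on either side of it, and each sequence reads 5′ to 3′ along its gene.
Prkag3 promoter: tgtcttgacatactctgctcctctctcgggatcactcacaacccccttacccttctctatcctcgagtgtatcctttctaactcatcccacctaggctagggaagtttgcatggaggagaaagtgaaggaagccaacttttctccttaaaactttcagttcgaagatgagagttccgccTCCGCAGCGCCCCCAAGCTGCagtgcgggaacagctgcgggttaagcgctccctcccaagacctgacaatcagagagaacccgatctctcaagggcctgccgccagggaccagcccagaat
Lmbr1 promoter: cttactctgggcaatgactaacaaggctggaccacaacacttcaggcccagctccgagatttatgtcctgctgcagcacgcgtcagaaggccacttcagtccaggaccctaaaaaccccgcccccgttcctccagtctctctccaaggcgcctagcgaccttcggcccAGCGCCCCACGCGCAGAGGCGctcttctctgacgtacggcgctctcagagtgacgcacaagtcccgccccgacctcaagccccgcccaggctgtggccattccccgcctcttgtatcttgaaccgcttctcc
Neither window, nor that of Rnf32, held the core letters of the CTCF motif searched on both strands, CCACNAGG or AGGNGGC. Among all 30562 promoter windows outside chromosome 11, 4.94% held CCACNAGG and 29.1% held AGGNGGC. Of the 2222 windows with a summit in all 4 libraries the shares were 10.4% and 50.6%. The RefSeq windows of Wnt6, Ihh and Epha4 held no summit.

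Near the 6 genes, as over all sites outside chromosome 11, the sites of the strongest class described below were nearly always present in all 4 libraries. Of the 85 sites, 31 were present in all 4 libraries, or 36.5% (95% Wilson interval 27.0 to 47.1), against 32.8% of all sites outside chromosome 11. Another 8 were present in 3 libraries, 16 in 2 and 30 in only 1. The sites found in a single library numbered 5 in Del(CBS8-10), 15 in Inv:Del(CBS7-10), 1 in Inv and 9 in Ins. The counts of sites in fewer than 4 libraries have no share over all sites to set beside them.

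The strength of a peak is given here as the −log10 q of the authors' peak caller. A site was classed by its highest −log10 q over the libraries, and presence in all libraries rose with that value. Of the 28 sites with a −log10 q of at least 50 in some library, 27 were in all 4 (96.4%, interval 82.3 to 99.4), against 93.2% of all sites of that strength. From 20 to 50 it was 2 of 11 sites (18.2%, interval 5.14 to 47.7), against 42.2% of all such sites. From 10 to 20 it was 1 of 14 (7.14%), against 10.5%, from 5 to 10 it was 1 of 17 (5.88%), against 1.37%, and below 5 none of 15, against 0.0299%. Each interval near the 6 genes included the share over all sites of the same strength. The intervals take sites as independent, although some are neighbouring summits, so they may be too narrow. Joining overlapping peak intervals left 71 sites in place of 85. Sites inside the span of a gene made up 62 of the 85 (72.9%, interval 62.7 to 81.2), against 56.5% of all sites, and since the rule takes windows around genes, it sets part of this share.

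**Figure D1:**
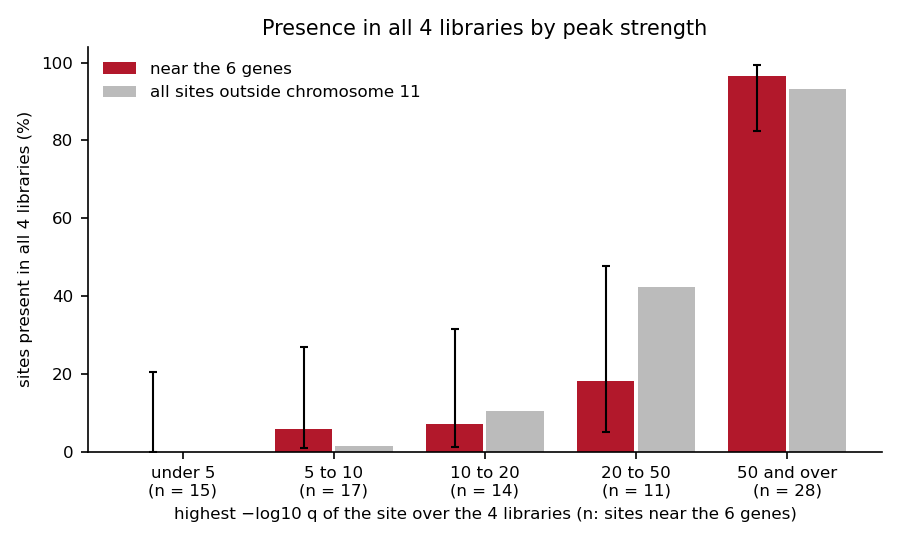
Share of CTCF sites present in all 4 libraries (vertical axis, percent) by the highest −log10 q of the site over the libraries; red bars are the sites near the 6 genes with 95% Wilson intervals, grey bars all sites outside chromosome 11. The red bar reaches 96.4% for sites of 50 and over and 0 for sites under 5.

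The 4 libraries differed in depth of signal. The lists held 74555 peaks in Del(CBS8-10), 99177 in Inv:Del(CBS7-10), 66365 in Inv and 93969 in Ins. Over the 40574 sites shared by all 4, the median pileup (the number of fragments over the summit) was 29 in Del(CBS8-10), 111 in Inv:Del(CBS7-10), 21 in Inv and 64 in Ins, and the genome-wide background was 0.553 fragments in Del(CBS8-10), 1.33 in Inv:Del(CBS7-10), 0.19 in Inv and 0.858 in Ins. A −log10 q therefore has a different scale in each library, and named sites are compared by it mainly within 1 library. Where sites are classed or drawn by their highest −log10 q over the libraries, these scales are mixed. The median −log10 q per peak was 24.1 in Inv:Del(CBS7-10), 17.8 in Ins, 12.5 in Inv and 12.2 in Del(CBS8-10). How far the strength classes depend on the library with the highest values was not tested. Between libraries, the pileup is compared after division by the library's own median over the shared sites.

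The density of sites differed widely among the 6 genes. Wnt6 had 27 sites within 50 kb, or 20.6 per 100 kb, at the 95.3 percentile of the 20018 protein-coding genes outside chromosome 11, and Ihh had 16, or 15.0 per 100 kb, at the 81.7 percentile. Epha4 had 15 sites (6.05 per 100 kb) and Lmbr1 also 15 (6.03 per 100 kb), both at a percentile near 35.3. Pax3 had 9 (4.59 per 100 kb, percentile 26.2) and Shh 3 (2.72 per 100 kb, percentile 15.3). The median coding gene had 8.56 sites per 100 kb (interquartile range 4.34 to 13.4), and chromosomes 1 and 5 had 4.51 and 6.36 per 100 kb over their whole length.

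Density and stability across libraries followed different orders. All 3 sites of Shh were in every library, as were 7 of 15 at Lmbr1, 10 of 27 at Wnt6, 9 of 16 at Ihh, 2 of 15 at Epha4 and none of 9 at Pax3. By locus, this was 10 of 18 sites at Shh and Lmbr1 (55.6%, interval 33.7 to 75.4), 19 of 43 at Wnt6 and Ihh (44.2%, interval 30.4 to 58.9) and 2 of 24 at Epha4 and Pax3 (8.33%, interval 2.32 to 25.8). The share at Epha4 and Pax3 lay below the 32.8% of all sites, and 9 of its 24 sites never reached a −log10 q of 5, set beside 2 of 18 at Shh and Lmbr1, 4 of 43 at Wnt6 and Ihh and 21.6% of all sites. Sites at most 10 kb from the next formed 9 chains of 3 or more, of which 3 lay at Lmbr1, 3 at Wnt6 and 1 each at Ihh, Epha4 and Pax3, with none at Shh.

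**Figure D2:**
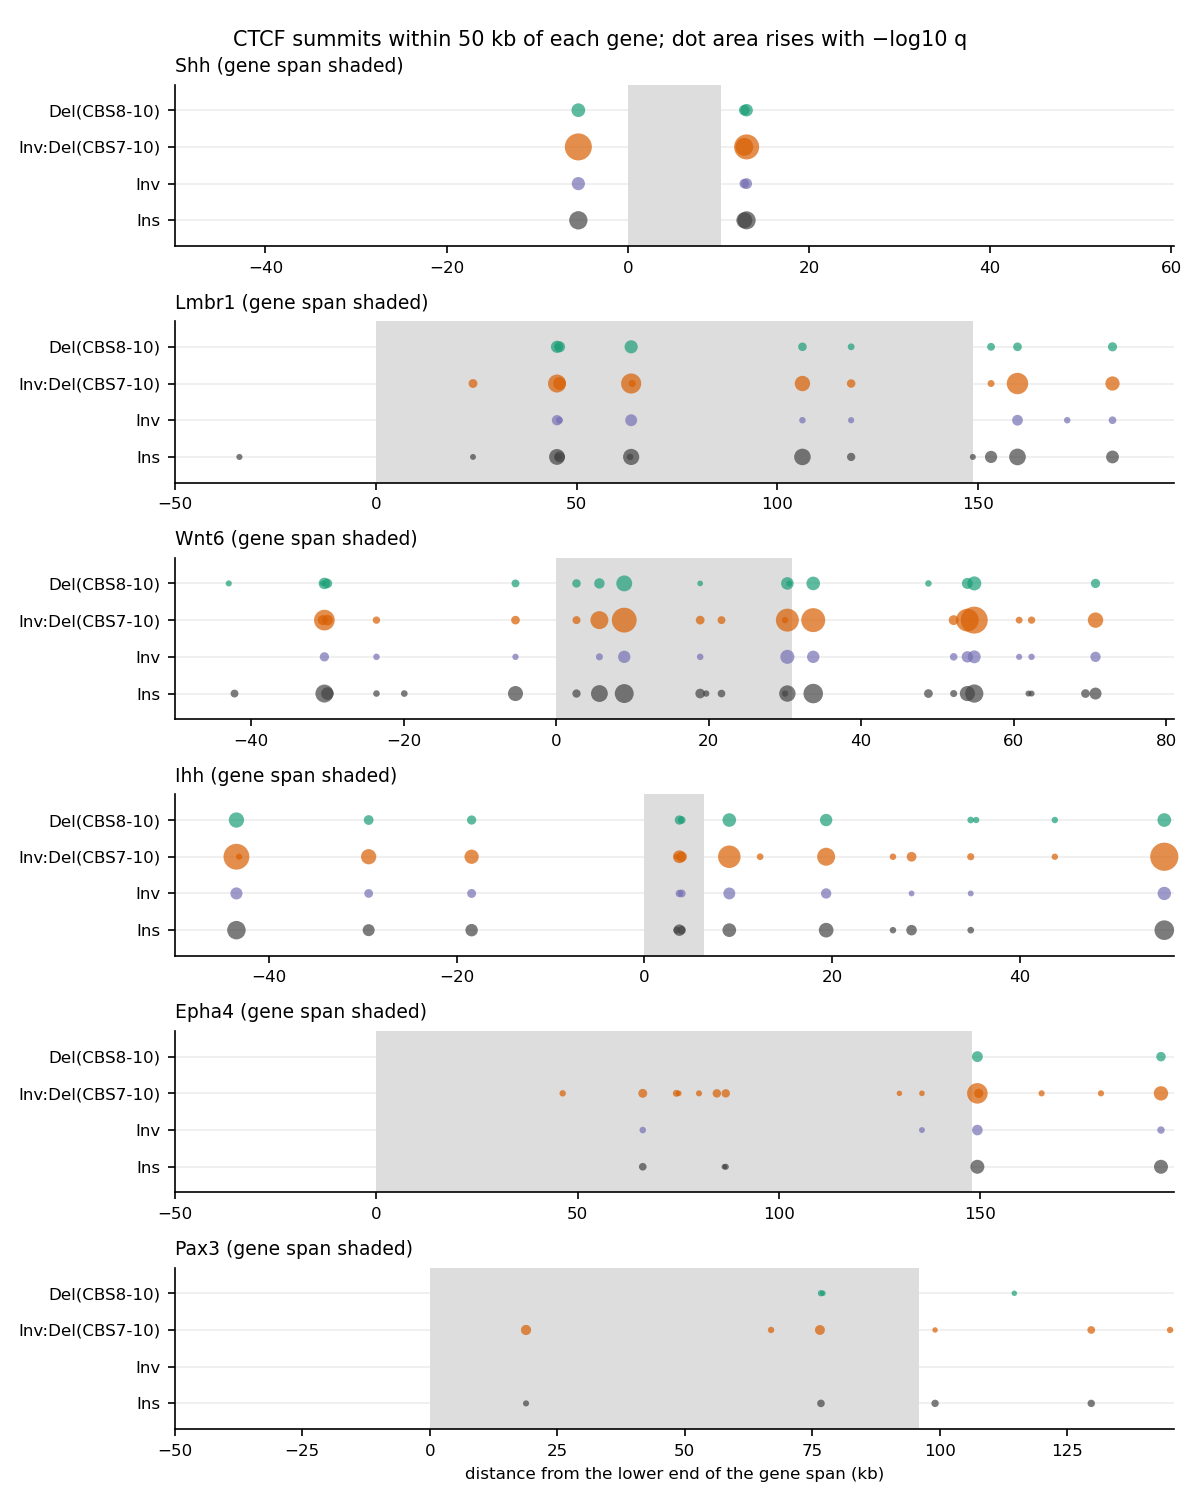
CTCF summits along each of the 6 genes; the horizontal axis is the distance from the lower end of the gene span in kb (each panel has its own range), the grey block is the gene, each row is a library, and dot area rises with −log10 q. Shh shows the same 3 sites in all 4 rows, Wnt6 is crowded, Epha4 is filled mainly in the Inv:Del(CBS7-10) row, and the Inv row of Pax3 is empty.

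Shh (chr5:28456840-28467101) was flanked on both sides by strong CTCF sites and had none inside the gene. The site at chr5:28451386 lay 5454 bp below the gene and had a −log10 q of 62.5 in Del(CBS8-10), 270.2 in Inv:Del(CBS7-10), 56.9 in Inv and 119 in Ins. Its pileup was 60 fragments in Del(CBS8-10), 252 in Inv:Del(CBS7-10), 52 in Inv and 115 in Ins. It stood between the 89.5 and 93.5 percentile of the shared sites of its own library in each of the 4.

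On the other side, a pair of summits lay 254 bp apart inside the long noncoding RNA gene 9530036O11Rik. The nearer one, chr5:28469713, was 2612 bp from Shh and had a −log10 q of 33.9 in Del(CBS8-10), 113 in Inv:Del(CBS7-10), 25.9 in Inv and 87.6 in Ins. The farther one, chr5:28469967, reached 50.0 in Del(CBS8-10), 231 in Inv:Del(CBS7-10), 35.2 in Inv and 115 in Ins. The farther summit was the stronger of the pair in all 4 libraries. Its scaled pileup was also the steadiest of all 31 shared sites near the 6 genes, with a range of 0.25 on the log2 scale over the 4 libraries. That range is about the size of the counting SEs of its log2 differences between libraries (0.23 to 0.27).

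Lmbr1 (chr5:29229802-29378421), the host gene of the ZRS, held 9 sites inside its span, 5 of them in every library. The strongest inside in all libraries but Ins was chr5:29293394, with a −log10 q of 56.7 in Del(CBS8-10), 145 in Inv:Del(CBS7-10), 44.5 in Inv and 90.9 in Ins. Below it, chr5:29274935 had 47.2 in Del(CBS8-10), 115 in Inv:Del(CBS7-10), 31.2 in Inv and 86.8 in Ins. Its close neighbour chr5:29275563 had 37.2 in Del(CBS8-10), 53.0 in Inv:Del(CBS7-10), 8.51 in Inv and 35.4 in Ins. Both places were small clusters of 3 summits, over 0.628 kb at chr5:29274935 and over 0.521 kb around chr5:29293394.

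The most uneven site of Lmbr1 was chr5:29336036, 42354 bp from the gene start. Its pileup was 24 in Del(CBS8-10), 78 in Inv:Del(CBS7-10), 6 in Inv and 95 in Ins. Scaled to each library, Inv was lower than Ins by a log2 difference of -2.38 (counting SE 0.61), and Inv:Del(CBS7-10) was higher than Inv by 1.30 (counting SE 0.61). The Inv value rests on 6 fragments, and over the 7 shared sites of Lmbr1 the pileup ran between 5 and 40 fragments in Inv and between 18 and 97 in Ins. A weaker site lay at chr5:29348163, with a −log10 q of 7.71 in Del(CBS8-10), 17.8 in Inv:Del(CBS7-10), 4.90 in Inv and 16.3 in Ins.

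Above the Lmbr1 start, 2 further sites were in every library. The site chr5:29389575, 11154 bp beyond the gene, had a −log10 q of 19.1 in Del(CBS8-10), 166 in Inv:Del(CBS7-10), 34.7 in Inv and 97.0 in Ins. Its scaled pileup in Del(CBS8-10) was below that of Ins by a log2 difference of -0.92 (counting SE 0.33). The site chr5:29413231, 34810 bp beyond the gene towards Nom1, had 22.4 in Del(CBS8-10), 68.4 in Inv:Del(CBS7-10), 12.8 in Inv and 53.1 in Ins.

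The promoter of Lmbr1 carried only a weak summit. It lay 72 bp from the gene start at chr5:29378462, in Ins alone, with a −log10 q of 3.93 and a pileup of 12. The Rnf32 promoter likewise had a summit in Ins alone, at chr5:29195866, with 4.38. Between the promoter and the strong site above it, chr5:29382996 had 13.7 in Del(CBS8-10), 8.54 in Inv:Del(CBS7-10), no summit in Inv and 47.3 in Ins. Deep in the gene, chr5:29254018 had 20.3 in Inv:Del(CBS7-10) and 3.41 in Ins, and no summit in Del(CBS8-10) or Inv.

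Wnt6 (chr1:74754342-74785322) lay in a dense run of sites, in which a chain of 11 from the Prkag3 promoter to just past Wnt6, over 39.1 kb, held 6 sites present in every library. The 3 strongest of the chain in Ins were chr1:74788067, 2745 bp past the gene, chr1:74763278 inside it and chr1:74760021, also inside. The first had a −log10 q of 61.4 in Del(CBS8-10), 210.2 in Inv:Del(CBS7-10), 49.2 in Inv and 136 in Ins. The second had 87.3 in Del(CBS8-10), 227 in Inv:Del(CBS7-10), 48.5 in Inv and 127 in Ins. The third had 31.8 in Del(CBS8-10), 114 in Inv:Del(CBS7-10) and 98.8 in Ins but 8.84 in Inv, where its scaled pileup was below Ins by a log2 difference of -1.50 (counting SE 0.39).

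The Prkag3 promoter summit, chr1:74749016, was the most uneven of the 31 shared sites. It lay 61 bp from the gene start, inside the capitals of the printed window, and had a pileup of 18 in Del(CBS8-10), 23 in Inv:Del(CBS7-10), 6 in Inv and 75 in Ins. The −log10 q was 14.2 in Del(CBS8-10), 19.1 in Inv:Del(CBS7-10), 5.30 in Inv and 76.9 in Ins. Its scaled pileup ranged over 2.50 on the log2 scale, with Ins highest and Inv:Del(CBS7-10) lowest, and the difference of Inv over Ins was -2.04 (counting SE 0.61).

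The Wnt6 start used here is that of its RefSeq promoter window and lies inside the gene span, 8614 bp above chr1:74763278. Within Wnt6 the site nearest to that start, chr1:74773238 at 1346 bp, was low among the shared sites of each library. It stood between the 0.50 percentile in Del(CBS8-10) and the 21.7 percentile in Ins. It had a −log10 q of 2.42 in Del(CBS8-10), 19.6 in Inv:Del(CBS7-10), 6.50 in Inv and 26.0 in Ins. Its pileup was 6 fragments in Del(CBS8-10), 26 in Inv:Del(CBS7-10), 8 in Inv and 35 in Ins, and Del(CBS8-10) was below Ins by a log2 difference of -1.40 (counting SE 0.64). At the far end of the gene, chr1:74784674 had a −log10 q of 50.8 in Del(CBS8-10), 192 in Inv:Del(CBS7-10), 66.1 in Inv and 93.1 in Ins. That was the strongest site of the Wnt6 window in the Inv list, at the 94.6 percentile of its shared sites.

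The remaining shared sites of the Wnt6 window lay outside the gene on either side. Below it, inside Cyp27a1 (a sterol hydroxylase gene), chr1:74723951 had a −log10 q of 40.7 in Del(CBS8-10), 155 in Inv:Del(CBS7-10), 23.1 in Inv and 114 in Ins. Beside it, chr1:74724346 had 25.0 in Del(CBS8-10), 33.5 in Inv:Del(CBS7-10) and 50.9 in Ins and was without a summit in Inv, and chr1:74723742 had 1.51 in Del(CBS8-10) and 28.3 in Inv:Del(CBS7-10) only. The first of these companions is the 1 site of the 28 strongest that was not in all 4 libraries, and it lies 395 bp from a shared site.

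From Wnt10a, the Wnt ligand gene next to Wnt6, to beyond its end, another chain of 9 sites over 21.9 kb held 3 shared ones. Its strongest, chr1:74809188, had a −log10 q of 66.1 in Del(CBS8-10), 269 in Inv:Del(CBS7-10), 53.8 in Inv and 118 in Ins. The others were chr1:74808283, with 36.7 in Del(CBS8-10), 189 in Inv:Del(CBS7-10), 39.6 in Inv and 78.0 in Ins, and chr1:74825092, with 23.0 in Del(CBS8-10), 81.0 in Inv:Del(CBS7-10), 31.0 in Inv and 45.2 in Ins. The same chain held chr1:74806488, with 27.6 in Inv:Del(CBS7-10), 12.0 in Inv and 9.29 in Ins and no summit in Del(CBS8-10).

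Ihh (chr1:74945315-74951672), which encodes the hedgehog ligand of growing cartilage, held 2 shared summits inside the gene and a stronger one just above its start. Inside, chr1:74949293 was 2379 bp from the start and had a −log10 q of 12.6 in Del(CBS8-10), 31.6 in Inv:Del(CBS7-10), 13.8 in Inv and 16.1 in Ins. Its neighbour chr1:74949044 had 23.6 in Del(CBS8-10), 53.0 in Inv:Del(CBS7-10), 11.7 in Inv and 41.1 in Ins. Above the start by 2690 bp, chr1:74954362 had 61.1 in Del(CBS8-10), 184 in Inv:Del(CBS7-10), 44.6 in Inv and 61.8 in Ins.

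In every library the site above the Ihh start was thus the strongest of the 3. Its scaled pileup was higher in Del(CBS8-10) than in Ins by a log2 difference of 0.98 (counting SE 0.24) and higher in Inv than in Ins by 0.89 (counting SE 0.27), both just under a 2-fold difference. It belonged to a chain of 11 sites over 40.3 kb running from Ihh into Nhej1, a DNA end joining gene, of which 5 were shared. Within that chain, chr1:74964676 had a −log10 q of 49.0 in Del(CBS8-10), 115 in Inv:Del(CBS7-10), 31.1 in Inv and 72.4 in Ins. Another member, chr1:74980075, was shared although weak, with 7.27 in Del(CBS8-10), 9.74 in Inv:Del(CBS7-10), 3.41 in Inv and 7.12 in Ins. At chr1:74973773 there were 26.7 in Inv:Del(CBS7-10), 3.05 in Inv and 32.9 in Ins but no summit in Del(CBS8-10).

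The outer ends of the Ihh window held its strongest sites. On the Epha4 side, chr1:75000690 inside Nhej1 had a −log10 q of 62.3 in Del(CBS8-10), 295 in Inv:Del(CBS7-10), 58.6 in Inv and 138 in Ins. Towards Wnt6, chr1:74901869 at 202 bp from Cfap65 had 80.0 in Del(CBS8-10), 246 in Inv:Del(CBS7-10), 46.3 in Inv and 121 in Ins. By percentile among the shared sites of each library, chr1:75000690 stood between 91.9 and 95.2 and chr1:74901869 between 85.2 and 97.5. Inside Cfap65, chr1:74915952 had 27.0 in Del(CBS8-10), 79.5 in Inv:Del(CBS7-10), 19.7 in Inv and 45.2 in Ins, and chr1:74926917 had 22.9 in Del(CBS8-10), 68.4 in Inv:Del(CBS7-10), 20.8 in Inv and 49.4 in Ins.

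Epha4 (chr1:77367182-77515107) had 2 shared sites in its window, both above the gene start, and none within its span. The first, chr1:77516411, lay 1323 bp from the start and had a −log10 q of 35.5 in Del(CBS8-10), 152 in Inv:Del(CBS7-10), 33.2 in Inv and 64.9 in Ins. The second, chr1:77561995, lay 46888 bp beyond the gene and had 24.5 in Del(CBS8-10), 69.5 in Inv:Del(CBS7-10), 11.2 in Inv and 65.1 in Ins. At the second site the scaled pileup of Inv was below that of Ins by a log2 difference of -1.05 (counting SE 0.49), with 10 fragments in Inv.

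Inside Epha4 there were 10 sites, all but 1 of them seen in the Inv:Del(CBS7-10) library, the one with the most fragments per site. A chain of 7 over 20.6 kb had none in Del(CBS8-10), 6 in Inv:Del(CBS7-10), 1 in Inv and 3 in Ins. The strongest of it, chr1:77433335, had a −log10 q of 20.3 in Inv:Del(CBS7-10), 6.39 in Inv and 12.4 in Ins. Next to each other, chr1:77453947 had 17.2 in Inv:Del(CBS7-10) and 4.38 in Ins, and chr1:77453587 had 1.65 in Ins alone. Of the 15 sites of the Epha4 window, 10 were in only 1 library, a count with no share over all sites to set beside it. Beside the shared site at the start, chr1:77516736 had 22.7 in Inv:Del(CBS7-10) alone. Whether these single-library sites depend on the depth of that library was not tested.

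Pax3 (chr1:78101267-78197136) had no site shared by the 4 libraries and none at all in Inv. Its strongest summit in Inv:Del(CBS7-10), chr1:78120140 inside the gene, had a −log10 q of 30.1 there. The same site had 4.38 in Ins, the lowest of the 4 Pax3 sites of that list. Also inside, chr1:78177784 had 27.8 in Inv:Del(CBS7-10) alone, and 202 bp away chr1:78177986 had 5.48 in Del(CBS8-10) and 12.3 in Ins. These summits become 1 site found in 3 libraries when summits up to 250 bp apart are joined.

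Around Pax3 the other sites were weak. Beyond the higher-numbered end of the gene by 3233 bp, chr1:78200369 had a −log10 q of 1.48 in Inv:Del(CBS7-10) and 11.1 in Ins. Farther out, chr1:78230998 had 13.1 in Inv:Del(CBS7-10) and 11.1 in Ins. No Pax3 site exceeded 5.48 in Del(CBS8-10) or 12.3 in Ins, and the whole window of 196 kb had 4.59 sites per 100 kb, close to the 4.51 of chromosome 1.

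Between neighbouring genes, the intervals differed in how densely and how evenly CTCF sites were spread. From Shh to Lmbr1, an interval of 762.7 kb, there were 10 sites, or 1.31 per 100 kb, the lowest density of the 4 intervals. Only 3 were in every library, and 2 of those were the pair next to Shh. The third, chr5:29036843, lay 569742 bp from Shh and 192959 bp from Lmbr1 and had a −log10 q of 16.5 in Del(CBS8-10), 44.9 in Inv:Del(CBS7-10), 21.1 in Inv and 28.7 in Ins. The 566.9 kb between that site and the Shh pair held 5 sites, none of them shared, the strongest being chr5:28911277 with 4.56 in Del(CBS8-10), 53.8 in Inv:Del(CBS7-10) and 20.4 in Ins and no summit in Inv.

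From Wnt6 to Ihh, 160.0 kb held 24 sites, 12 of them in every library, or 7.50 shared sites per 100 kb against 0.393 between Shh and Lmbr1. The highest in the Ins list was chr1:74880975, 526 bp from Fev, a serotonergic neuron factor gene. It had a −log10 q of 67.5 in Del(CBS8-10), 293 in Inv:Del(CBS7-10), 98.3 in Inv and 171 in Ins, between the 95.1 and 98.9 percentile of the shared sites of each library. Next in the Ins list came chr1:74788067 beside Wnt6, and chr1:74893664 in the lens crystallin gene Cryba2, with 44.8 in Del(CBS8-10), 176 in Inv:Del(CBS7-10), 47.3 in Inv and 130 in Ins.

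The longest interval, 2415.5 kb from Ihh to Epha4, held 131 sites, 40 of them in every library. They were crowded on the Ihh side: all 16 chains of 3 or more sites began within 714 kb of Ihh. The highest site of the Ins list there, chr1:75559685 at 254 bp from the anion exchanger gene Slc4a3, had a −log10 q of 107 in Del(CBS8-10), 350.2 in Inv:Del(CBS7-10), 67.5 in Inv and 238 in Ins. In the long Nhej1 gene, chr1:75017061 had 83.1 in Del(CBS8-10), 187 in Inv:Del(CBS7-10), 27.0 in Inv and 153 in Ins, and chr1:75124695 had 78.0 in Del(CBS8-10), 265 in Inv:Del(CBS7-10), 64.7 in Inv and 152 in Ins. Towards Epha4, a stretch of 848.2 kb between chr1:75997439 and chr1:76845672 held 4 sites and none in every library.

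Between Epha4 and Pax3, 586.2 kb held 26 sites with 11 in every library, and the strongest stood far from both genes. At chr1:77972532, 457425 bp from Epha4 and 128735 bp from Pax3, the −log10 q was 90.2 in Del(CBS8-10), 381 in Inv:Del(CBS7-10), 85.2 in Inv and 190.2 in Ins. That site lay at the 97.9 percentile of shared sites or above it in every library. Around it, 4 more shared sites stood between 415742 and 493811 bp from Epha4. Of these, chr1:77930849 had 41.3 in Del(CBS8-10), 236 in Inv:Del(CBS7-10), 32.0 in Inv and 105 in Ins, and chr1:78008918 had 41.3 in Del(CBS8-10), 183 in Inv:Del(CBS7-10), 49.4 in Inv and 90.8 in Ins.

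This group of sites lay outside the 50 kb windows of both genes. The shared sites more than 50 kb from both genes numbered 9 and also held weaker ones outside the group. Among them was chr1:77691618, between the 1.78 percentile of shared sites in Inv and the 20.9 percentile in Ins. Over these 9 sites together the median fold was 15.3 in Del(CBS8-10), 26.3 in Inv:Del(CBS7-10), 17.1 in Inv and 19.7 in Ins. Over all shared sites it was 10.9 in Del(CBS8-10), 17.5 in Inv:Del(CBS7-10), 11.03 in Inv and 14.8 in Ins. Near Wnt6 and Ihh the median fold was 12.3 in Del(CBS8-10), 15.6 in Inv:Del(CBS7-10), 12.8 in Inv and 14.5 in Ins, while the local background there as a multiple of the genome background was 4.20 in Del(CBS8-10), 6.59 in Inv:Del(CBS7-10), 7.37 in Inv and 5.10 in Ins. Over all shared sites that multiple was 2.82 in Del(CBS8-10), 3.86 in Inv:Del(CBS7-10), 4.42 in Inv and 3.54 in Ins.

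**Figure D3:**
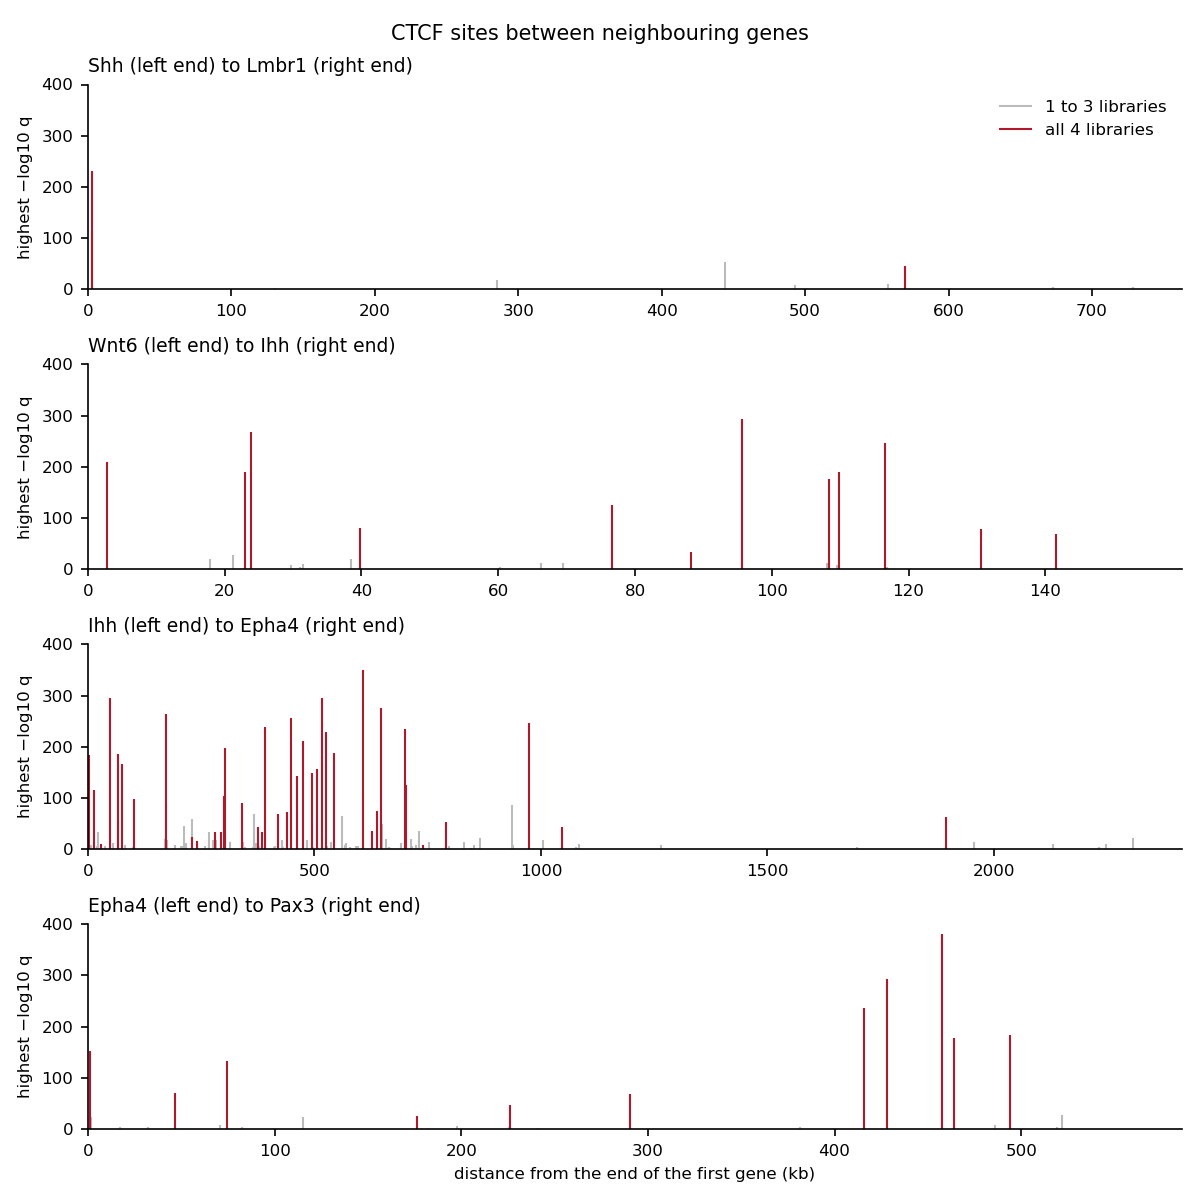
CTCF sites between neighbouring genes; the horizontal axis is the distance in kb from the end of the first gene (each panel has its own range), bar height is the highest −log10 q over the libraries, red bars are sites in all 4 libraries and grey bars sites in 1 to 3. Red bars crowd beside Ihh, and stand as a group between 415742 and 493811 bp from Epha4.

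The 3 pairs of genotypes that differ by 1 named step were then compared at these loci, to see whether the same sites were found away from the edited chromosome. Of the 60 Ins sites near the 6 genes, 37 were found in Del(CBS8-10), or 61.7% (interval 49.0 to 72.9), against 65.4% of all Ins sites outside chromosome 11. In Inv, 36 of the same 60 were found, or 60.0% (interval 47.4 to 71.4), against 56.7% of all. Of the 39 Inv sites, 38 were found in Inv:Del(CBS7-10), or 97.4% (interval 86.8 to 99.5), against 86.4% of all. The first 2 intervals included the share over all sites, and the last began just above it. Within 100 kb of the 6 genes the last share was 93.0% (interval 83.3 to 97.2), and that interval included 86.4%.

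By locus, the counts were small and their intervals wide. In Del(CBS8-10), 12 of 16 Ins sites were found at Shh and Lmbr1, 22 of 35 at Wnt6 and Ihh, and 3 of 9 at Epha4 and Pax3. In Inv it was 10 of 16, 23 of 35 and 3 of 9 at these loci. The intervals of the 3 loci overlapped in both pairs, with 50.5 to 89.8%, 46.3 to 76.8% and 12.1 to 64.6% in Del(CBS8-10). The last of these, at Epha4 and Pax3, ended just below the 65.4% of all Ins sites, and the others included it. In Inv the intervals of all 3 loci included the 56.7% of all Ins sites. The 1 Inv site not found in Inv:Del(CBS7-10) was chr5:29401960 above Lmbr1, with a −log10 q of 6.25 and 6 fragments in Inv.

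At the 31 shared sites, the scaled pileups of the paired libraries mostly lay within 2-fold of each other. In Del(CBS8-10) over Ins, none was more than 2-fold higher and 1 was lower, the site near the Wnt6 start, against 3.44% higher and 1.45% lower of all 40574 shared sites. The median difference was 0.20 (log2), against 0.06 over all shared sites with an interquartile range of -0.23 to 0.34. In Inv over Ins, none was higher and 4 were lower, against 9.12% and 6.83%. These 4 were the Lmbr1 site chr5:29336036, the Prkag3 promoter, the Wnt6 site chr1:74760021 and the Epha4 site chr1:77561995.

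In each of these 4 the Inv library had between 6 and 15 fragments. The median difference of Inv over Ins was 0.10, against 0.13 over all shared sites. In Inv:Del(CBS7-10) over Inv, 1 was higher, again chr5:29336036, and none lower, against 4.69% and 8.98%, and the median was -0.15, against -0.12 over all. The first 2 pairs share the Ins library and the last 2 share Inv, so a single low library enters more than 1 difference.

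**Figure D4:**
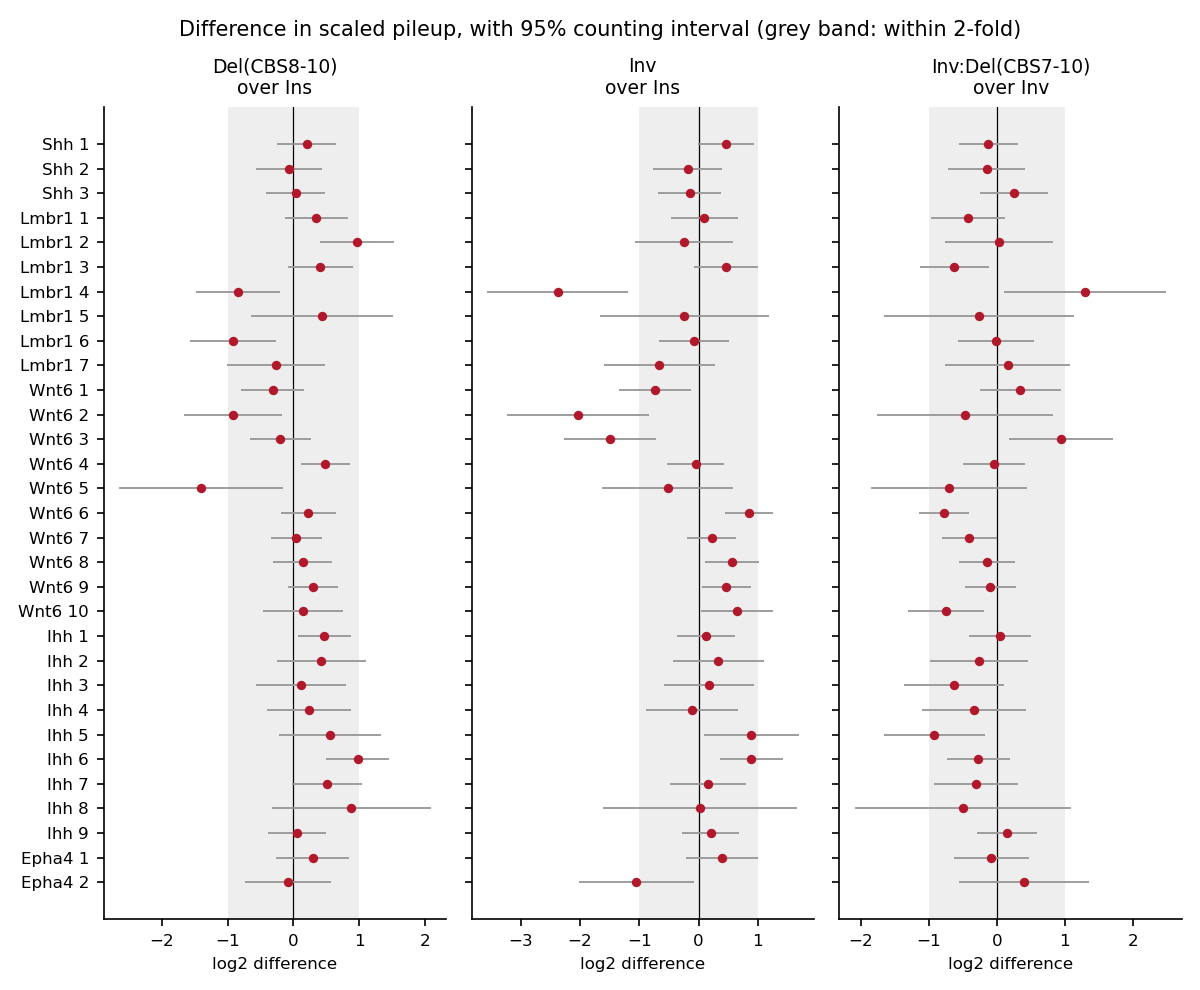
Difference in scaled pileup (horizontal axes, log2) between the paired libraries at the 31 shared sites, numbered along the chromosome within each gene's window; lines are 95% counting intervals and the grey band marks differences within 2-fold. Points left of the band are 1 in Del(CBS8-10) over Ins and 4 in Inv over Ins, and 1 point lies right of it in Inv:Del(CBS7-10) over Inv.

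Over the 4 libraries together, a pair of sites beside Shh kept the most even levels and the Prkag3 promoter the least even ones among the 31. The range of the scaled pileup over the libraries had a median of 0.68 on the log2 scale (interquartile range 0.47 to 0.96), against 0.84 (0.57 to 1.20) over all shared sites. In every library the median pileup at Shh and Lmbr1 and at Wnt6 and Ihh was above that of all shared sites. In Ins it was 95.5 and 75 fragments, against 64. Whether the range depends on the number of fragments was not tested. The median range was 0.67 at Shh and Lmbr1 and 0.69 at Wnt6 and Ihh. The steadiest sites were chr5:28469967 and chr5:28469713 beside Shh, with 0.25 and 0.33, and chr1:75000690 in Nhej1, with 0.36. The counting SEs of differences at these sites, 0.23 to 0.30, do not separate their ranges. The widest were the Prkag3 promoter with 2.50, chr5:29336036 in Lmbr1 with 2.38 and chr1:74760021 in Wnt6 with 1.50.

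**Figure D5:**
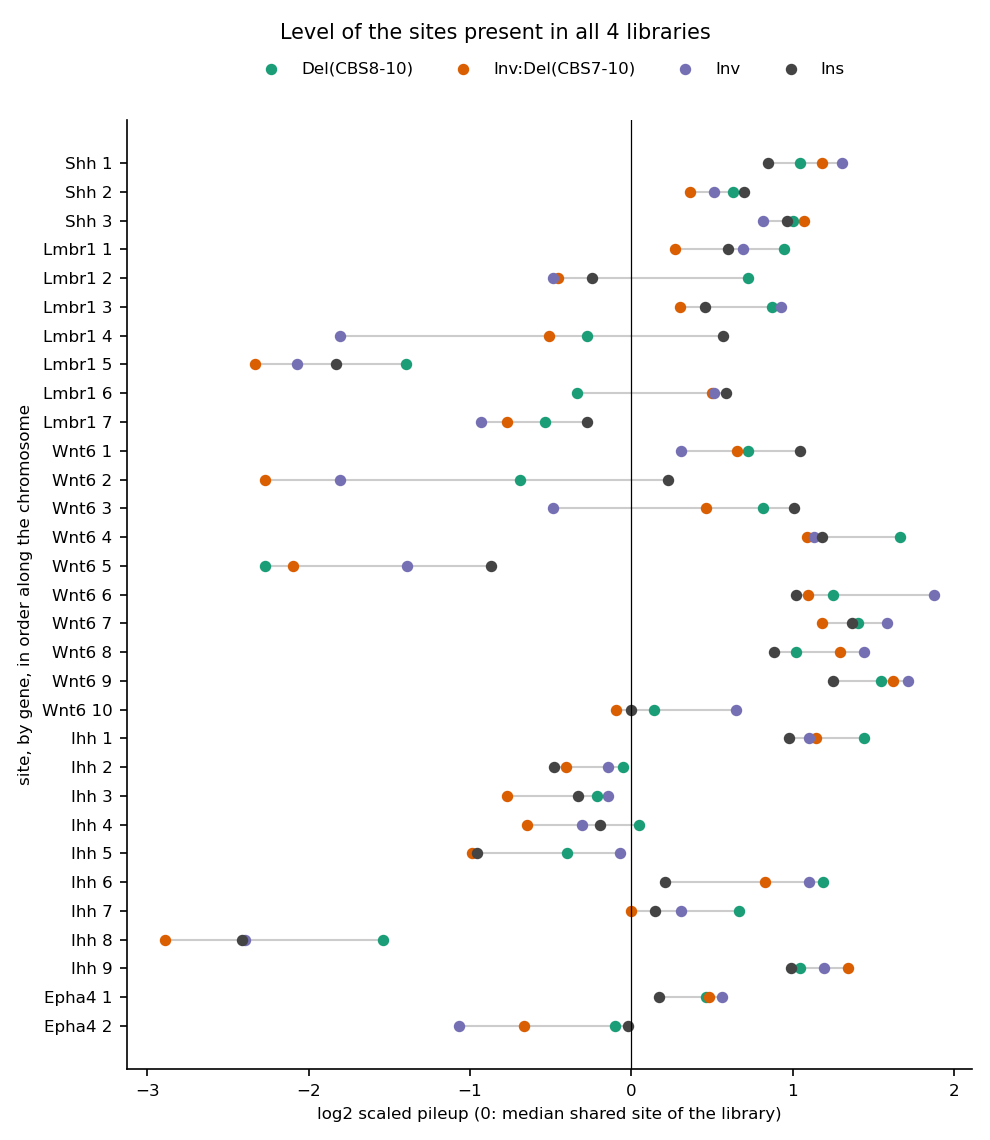
Scaled pileup (horizontal axis, log2; 0 is the median shared site of the library) of the 31 shared sites, named by gene and numbered along the chromosome, with 1 dot per library and a grey line over their range. The 3 Shh sites lie to the right of 0 in every library with short lines, and Lmbr1 4 and Wnt6 2, the Prkag3 promoter, have the longest lines.

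Other genes of the same pathways also had CTCF sites close by. All 13 genes of a Hedgehog pathway list beyond the 6, among them the receptor gene Ptch1, the transducer gene Smo and the effector genes Gli1, Gli2 and Gli3, had a summit within 50 kb in all 4 libraries, against 81.7% of all RefSeq genes and 89.5% of protein-coding genes. The 12 genes of a limb patterning list outside chromosome 11, among them Fgf8, Grem1 and Hand2, did so as well. At Ptch1 the highest −log10 q was 15.5 in Del(CBS8-10), 32.3 in Inv:Del(CBS7-10), 15.9 in Inv and 54.0 in Ins. At Gli3 it was 25.2 in Del(CBS8-10), 136 in Inv:Del(CBS7-10), 21.5 in Inv and 79.5 in Ins. The median over the Hedgehog list was 50.8 in Del(CBS8-10), 212 in Inv:Del(CBS7-10), 49.8 in Inv and 109 in Ins, and over the limb list 37.0 in Del(CBS8-10), 177 in Inv:Del(CBS7-10), 32.3 in Inv and 78.0 in Ins.

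Among the neighbours, 17 of 17 genes of the chromosome 1 list and 5 of 6 of the chromosome 5 list had a summit in every library. These genes are not separate observations, since 7 of the 17 and 3 of the 6 were counted on sites that also lie within 50 kb of the 6 genes, and all but Scg2 share a site with one of those or with another listed neighbour. The exception was Mnx1, a motor neuron factor gene beyond Lmbr1, with a highest −log10 q of 11.3 in Del(CBS8-10), 19.1 in Inv:Del(CBS7-10) and 22.2 in Ins and no summit in Inv. The share of all RefSeq genes with a summit within 50 kb was 87.9% in Del(CBS8-10), 89.9% in Inv:Del(CBS7-10), 85.2% in Inv and 88.7% in Ins. Pax3, too, had none in Inv, and with Mnx1 it is the only gene among the 6 and the neighbours named here without one.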

How the data were processed

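CTCF CUT&RUN was deposited as 1 peak list per mESC library, on mm10 with both edited copies of chromosome 11. Per the submitters' processing notes, the tools were MACS2 2.2.7.1, Bowtie2 2.4.5, cutadapt 4.1, bedtools 2.30.0 and Picard. No source used here gives their settings, any control or the read depth. The deposited score is 10 times the −log10 q as a whole number. The deposited fold was taken as the pileup at the summit plus 1, divided by the local background plus 1. The deposited −log10 p-value and −log10 q-value are those of the authors' peak caller, with a lowest −log10 q of 1.30 to 1.31.

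Everything else was computed with SciPy 1.17.1, pandas 2.3.3, NumPy 2.4.6 and Python 3.11.15, and drawn with Matplotlib 3.10.9. Positions count from 1. Summits within 100 bp were chained into sites, and 3 or more sites at most 10 kb apart formed a chain. Whole-number pileups and backgrounds were solved from the fold and the −log10 p (tolerance 0.001), which worked for 100% of peaks in each list, and the solution was tested on simulated data. Counting SEs of log2 differences treat pileups as Poisson counts, and any PCR copies left in the pileups would make these errors too small. Genes came from the RefSeq table of GRCm38.p6. On chromosomes 1 and 5, Ins summits met gene starts best at an offset of 0 (4.07% and 3.99% within 150 bp, against medians over offsets of 0.348% and 0.412%).

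Named sites were those near Shh, Lmbr1, Wnt6 and Ihh in all 4 libraries, the 5 highest in Ins at Epha4 and at Pax3, the 3 highest in Ins per interval, the one nearest each gene start, and those of −log10 q 20 or more missing from a library. The most and least even sites, single-library exceptions and promoters were chosen after their values were seen. The genes and lists were chosen with earlier results of these data known. The motif search under summits was limited to promoter windows. Shh and Pax3 were not matched in the promoter table. Alternatives were stricter lists, other distances and leaving out libraries.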

Additional observations from a re-analysis of the deposited data

How the results depend on the processing

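Counts depended on the list used. The 85 sites became 53 with peaks of −log10 q 10 or more, 24 with the 20000 strongest peaks per list and 48 within 10 kb of a gene, and the 9 chains became 4, 0 and (within 100 kb) 15. The share in all 4 libraries was 66.7% with the 20000 strongest peaks. With 1 library left out, 40.5 to 45.0% of the sites were in all the remaining libraries. Ins sites found in Del(CBS8-10) came to 73.8% at −log10 q 10 or more and 81.0% with the 20000 strongest, and those found in Inv to 81.0% with the 20000 strongest. Inv sites found in Inv:Del(CBS7-10) came to 100% at −log10 q 10 or more and within 10 kb. Shares over all sites are not given for the stricter lists or with a library left out. The values at those settings therefore have no background beside them. The other 27 of 39 values stayed within 1.5 times a count or the interval of a share. The cause was not tested beyond fewer peaks or windows entering. No paired analysis was possible because there was 1 library per genotype. The median pileup per peak was 17 fragments in Del(CBS8-10), 35 in Inv:Del(CBS7-10), 14 in Inv and 26 in Ins. Whether missing summits depend on depth was not tested, and a missing summit does not show absence of CTCF.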

Other observations

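Between Ihh and Epha4 the promoter windows gave a further view of single sites, because 2 of those with a summit also held the core letters CCACNAGG. The Tuba4a window (an alpha tubulin gene), chr1:75219245-75219544 on the minus strand of GRCm38.p6, is printed because its summit, base 181, falls in a match of AGGNGGC that overlaps one of CCACNAGG. Capitals mark each match of CCACNAGG or AGGNGGC, here all on the reverse strand, and the first 2 matches share 1 base.
Tuba4a promoter: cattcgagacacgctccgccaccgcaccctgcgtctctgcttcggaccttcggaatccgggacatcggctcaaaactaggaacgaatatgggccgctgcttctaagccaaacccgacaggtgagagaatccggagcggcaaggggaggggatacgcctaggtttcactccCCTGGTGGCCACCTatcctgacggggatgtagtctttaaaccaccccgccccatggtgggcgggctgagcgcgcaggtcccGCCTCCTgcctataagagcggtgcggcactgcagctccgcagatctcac
This promoter had a −log10 q of 33.7 in Inv:Del(CBS7-10) and 32.8 in Ins and no summit in Del(CBS8-10) or Inv. The Nhej1 promoter held CCACNAGG from base 206 of its window on the forward strand and its summit at base 248, with a −log10 q of 1.68 in Del(CBS8-10), 10.4 in Inv:Del(CBS7-10) and 18.6 in Ins and no summit in Inv. Promoter windows with a summit in every library but neither set of core letters were those of Prkag3 near Wnt6 and of Abcb6, a mitochondrial transporter gene, whose summit had 3.84 in Del(CBS8-10), 24.5 in Inv:Del(CBS7-10), 16.4 in Inv and 15.1 in Ins. Over all promoter windows outside chromosome 11, those with a summit made up 10.8% in Del(CBS8-10), 16.2% in Inv:Del(CBS7-10), 12.9% in Inv and 17.6% in Ins.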
